A study of Mus musculus with 2 samples.

Results

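Cck encodes cholecystokinin, a peptide hormone of the gut and a neuropeptide of the brain and of peripheral nerves. It was examined in the embryonic mouse ureter together with both cholecystokinin receptor genes (Cckar and Cckbr) and 7 other precursor genes of peptide hormones and neuropeptides (Gal, Npy, Nts, Tac1, Vip, Sst and Pthlh). These 10 genes, of 29924 named on the array, were measured by 11 of 39429 probes and were taken by gene name. They were selected on the log2 ratios that the RNAs of these arrays had given, so that these ratios are described without a test.

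Ureters of E16.5 NMRI embryos were dissected, sorted by sex and pooled. Pparg-cKO pools carried the genotype Pax2-cre/+; Pparg(fl/fl), in which Cre under Pax2 control recombines the floxed allele in the nephric duct and the epithelia that arise from it, the ureteric epithelium and the collecting duct system. Control pools were labelled Pparg(fl/?), without the cre allele and with the second Pparg allele not given. Array 1 (the female array) compared 1 Pparg-cKO pool with 1 control pool of female embryos, and array 2 (the male array) compared the corresponding pools of male embryos with the dyes exchanged, so that sex and dye cannot be told apart. The stage was given as E14.5 for the Pparg-cKO channel and as E16.5 elsewhere, and E16.5 was used. The pooled ureters also held mesenchyme, muscle and nerves, which are not among the tissues named for this cre line.

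Which RNA was the mutant one is not settled by the dye labels, which oppose the direction used by the study. RNA A denotes the RNA labelled with AlexaFluor647 (red) on array 1 and AlexaFluor555 (green) on array 2, and RNA B its partner. By the dye labels RNA A was the control and RNA B Pparg-cKO, whereas the direction used by the study makes RNA A Pparg-cKO and RNA B the control. Every ratio below is log2 of RNA A over RNA B, and its sign in terms of genotype turns with this choice. By in situ hybridization the study found the uroplakin genes Upk1a and Upk3b reduced in Pparg-cKO ureters. On these arrays both were lower in RNA A, with mean ratios of -1.32 and -1.69. Pparg itself gave a ratio of 0.66 ± 0.076 (SD, n = 2 arrays), but whether its probe lies in the floxed exons was not analysed here, so that it checks neither reading. In pooled whole ureters, fewer cells of a type and less RNA per cell cannot be told apart.

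Peptide hormones are made as longer precursors that enter the secretory pathway, where prohormone convertases cut them behind pairs of basic residues and further enzymes trim, amidate or sulfate the product. The peptides are stored in dense-core granules of neurons and endocrine cells and act through G protein-coupled receptors. In the urinary tract such peptides are known mainly from autonomic and sensory nerve fibres, where VIP and NPY act on smooth muscle tone and blood flow and substance P and CGRP mark sensory endings. PTHrP, the product of Pthlh, is a local hormone of epithelia that signals to adjacent mesenchyme and relaxes smooth muscle.

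Cck was the single gene of the 10 that differed in the same direction and by at least 1.5-fold on both arrays. On the female array its processed signal was 75.1 in RNA A against 220 in RNA B, and on the male array it was 60.5 in RNA A against 158 in RNA B. RNA B was thus the brighter RNA in either sex, whichever dye it carried, being green on the female array and red on the male array. The 4 spots of the female array ranged from 70.2 to 79.8 in RNA A and from 215 to 223 in RNA B. On the male array the 4 spots ranged from 56.6 to 65.9 in RNA A and from 152 to 163 in RNA B. The spots of both RNAs did not overlap on either array, and all were well above background. By RNA in situ hybridization, however, the study found no specific Cck signal in ureters of either genotype at E16.5.

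The log2 ratio of Cck was -1.55 on the female array (SD over spots 0.068, n = 4) and -1.38 on the male array (SD over spots 0.057, n = 4). RNA B exceeded RNA A 2.92-fold in the female and 2.61-fold in the male pools. The mean over the arrays was -1.46 ± 0.12 (SD, n = 2 arrays). By the dye labels alone Cck would therefore be higher in Pparg-cKO ureters, whereas the study, whose E16.5 arrays are the ones analysed here, reported Cck as decreased there. The dye labels would likewise make Upk1a and Upk3b higher in Pparg-cKO ureters, where the study found both reduced by in situ hybridization. Cck ranked 19 among the 69 genes for which RNA B exceeded RNA A at least 1.5-fold on both arrays and reached a signal of 100 (0.231% of 29895 genes with values). The corresponding share for RNA A was 0.157% (47 genes). Since Cck was chosen for this contrast, nothing is read from its place in this list.

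**Figure D1:**
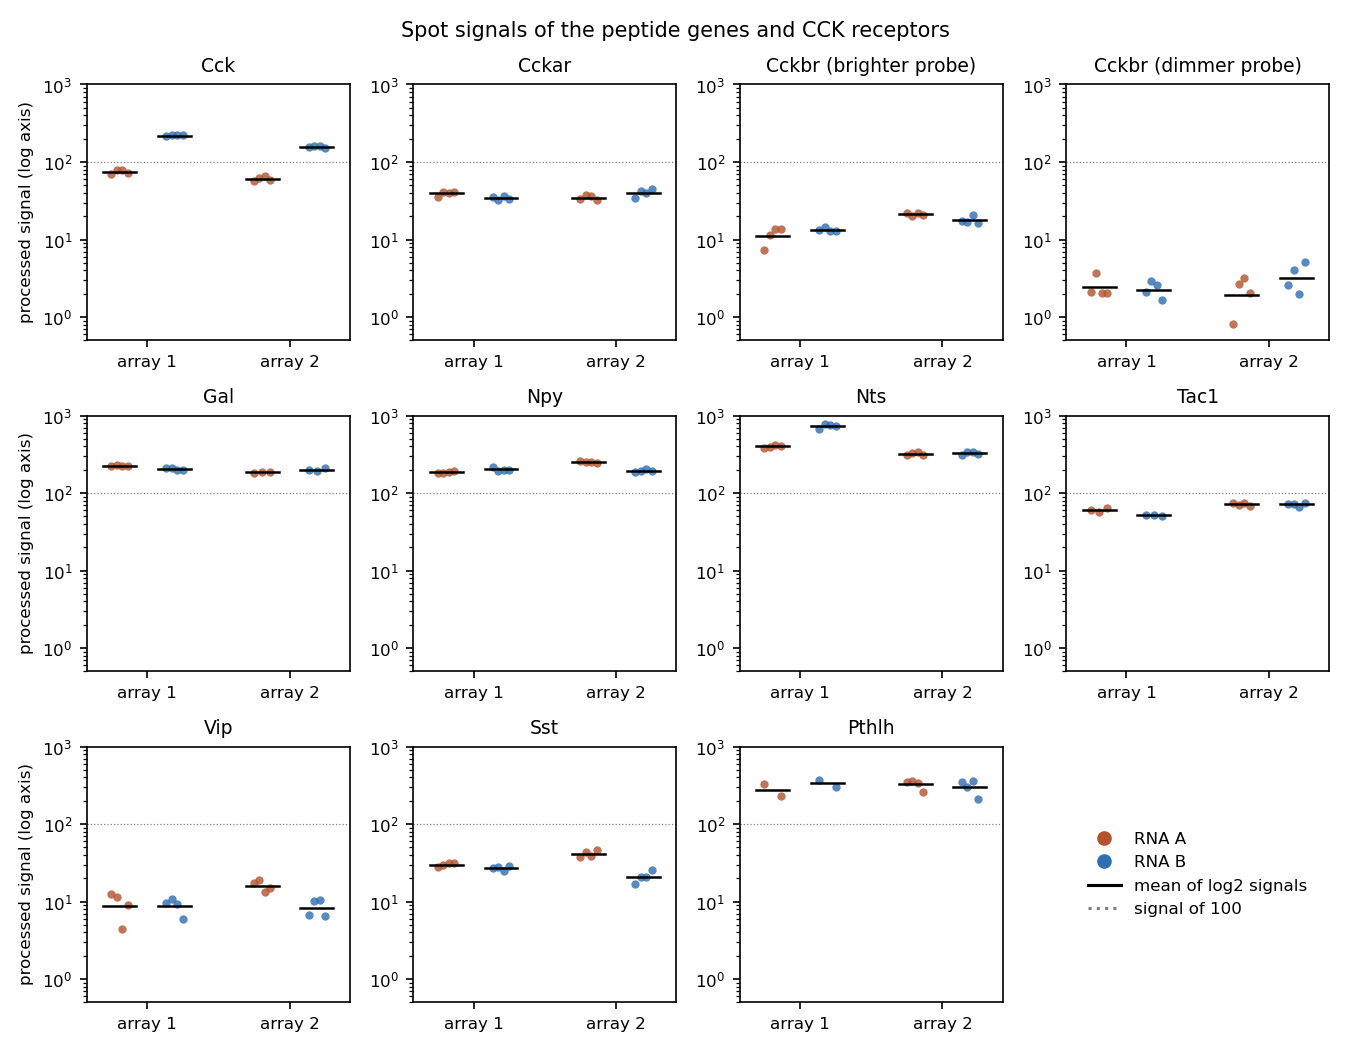
Processed signal (log axis, arbitrary fluorescence units) of each kept spot for the 11 probes of the 10 genes, with RNA A in brown and RNA B in blue on array 1 (female pools) and array 2 (male pools); black lines are the means of the log2 signals and the dotted line is a signal of 100. The RNA B spots of Cck lie above its RNA A spots on both arrays, those of Nts only on array 1, and the RNA A spots of Sst above its RNA B spots only on array 2.

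The Cck probe covers 60 bases at chr9:121398943-121399002 of mm9 on the minus strand, as placed by the array files. The window of 250 bases before the start of the RefSeq gene (chr9:121495695-121495944 of GRCm38.p6, minus strand) is shown because Cck carried the difference. Capitals mark an E-box, CACGTG, which lies 66 to 61 bases before the start.
Cck upstream window: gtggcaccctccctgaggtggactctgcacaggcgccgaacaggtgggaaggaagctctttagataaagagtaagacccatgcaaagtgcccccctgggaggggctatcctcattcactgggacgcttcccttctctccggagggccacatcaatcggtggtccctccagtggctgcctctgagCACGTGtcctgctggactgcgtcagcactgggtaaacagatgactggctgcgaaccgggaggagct

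The upstream windows of 9 of the 10 genes were found in the RefSeq table and searched for 4 motifs. The E-box letters CACGTG, which read the same on both strands, occurred in the windows of Cck, Cckbr and Tac1 and in 6.02% of all 32851 windows. AGGTCA, the half-site that nuclear receptors such as PPARG and its partner RXR bind as a repeat, was searched on both strands. It was present in 0 of the 9 windows and in 14.0% of all windows. TGACGTCA, the cAMP response element, also reads the same on both strands and was found only in the Sst window (1.55% of all windows). TATAAA on the strand of the gene was found only in the Vip window (7.59% of all windows). A match is a description of the letters, and an absent match says only that these letters are not in this window.

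Neither receptor of cholecystokinin differed by 1.5-fold on either array when measured by probes above background. Cckar encodes the receptor that prefers sulfated cholecystokinin. Its signal was 39.4 in RNA A against 34.5 in RNA B on the female array, and 34.6 in RNA A against 39.8 in RNA B on the male array. The log2 ratios were 0.19 and -0.20 in the order of the arrays, with opposite signs and overlapping spots.

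Cckbr encodes the receptor shared by cholecystokinin and gastrin and was measured by 2 probes. The brighter probe gave 11.2 in RNA A against 13.4 in RNA B on the female array, and 21.2 in RNA A against 17.7 in RNA B on the male array. Its log2 ratio was -0.25 on the female array and 0.26 on the male array. The other Cckbr probe had signals from 1.95 to 3.21 and did not rise well above background in any channel, so that its ratio is not given a direction. Both receptor genes were thus detected, at signals well under 100, and for both the brighter RNA changed between the arrays.

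Of the other precursor genes, Nts, Sst and Vip exceeded 1.5-fold on 1 array each. Such differences were common on a single array, since 7.59% of the 21371 genes well above background passed 1.5-fold on the female array and 7.17% on the male array. On both arrays but in opposite directions 0.903% passed, with none of the 10 genes among them. Gal, Npy, Tac1 and Pthlh stayed under 1.5-fold on both arrays, as did Cckar and Cckbr.

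Nts encodes neurotensin, a peptide of enteric endocrine cells and neurons. Its signal on the female array was 399 in RNA A (spots 376 to 422) against 734 in RNA B (spots 679 to 767). On the male array it was 321 in RNA A (spots 307 to 338) against 327 in RNA B (spots 314 to 338). RNA B was 1.84-fold brighter in the female pools without overlap of spots, whereas the spots overlapped in the male pools. The female pools thus had a log2 ratio of -0.88 and the male pools one of -0.024, averaging -0.45 ± 0.60 (SD, n = 2 arrays), which is less than the spread. A difference of at least 1.5-fold towards RNA B on the female array was found for 4.91% of genes.

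The Nts probe is shown with that of Npy because both lie in coding sequence and cross the end of the active peptide. The Nts probe lies at chr10:101944967-101945026 of mm9 on the minus strand. The bases of the Npy probe fall within chr6:49773743-49777505 of mm9 on the plus strand and are spread over 3763 bases of the genome, so that it crosses intron sequence. Capitals mark the codons of the Lys-Arg pair behind which the precursor is cut.
Nts probe: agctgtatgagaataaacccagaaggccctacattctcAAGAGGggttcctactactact
Npy probe: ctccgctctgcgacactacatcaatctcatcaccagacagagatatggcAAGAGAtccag

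Npy encodes neuropeptide Y, a transmitter of sympathetic nerves. Its signal was 186 in RNA A against 202 in RNA B on the female array, and 250 in RNA A against 194 in RNA B on the male array. The spots of both RNAs did not overlap on the male array, where they ranged from 244 to 259 in RNA A and from 188 to 207 in RNA B. On the female array they ranged from 183 to 193 in RNA A and from 192 to 218 in RNA B, with a slight overlap. Npy had a log2 ratio of -0.12 in the female and 0.37 in the male pools, so that the sign differed between arrays.

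Sst encodes somatostatin, which inhibits the release of other hormones and signals through receptors coupled to inhibitory G proteins. On the female array its signal was 29.96 in RNA A (spots 27.8 to 31.3) against 27.1 in RNA B (spots 25.0 to 29.1). On the male array it was 41.4 in RNA A (spots 37.2 to 46.2) against 20.8 in RNA B (spots 16.97 to 25.5). RNA A was thus 2.00-fold brighter in the male pools without overlap of spots, and the spots of the female pools overlapped. The log2 ratio of Sst, 0.14 in the female and 1.00 in the male pools, averaged 0.57 ± 0.60 (SD, n = 2 arrays), again less than the spread. On the male array, 3.47% of genes passed 1.5-fold towards RNA A. All Sst signals were under 100, and the ratio on the male array dropped to 0.58 when the background was corrected in another way (normexp with an offset of 50).

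The upstream window of Sst (chr16:23890845-23891094 of GRCm38.p6, minus strand) is shown because it was the one window of the 9 with the cAMP response element, which lies 48 to 41 bases before the start and is in capitals.
Sst upstream window: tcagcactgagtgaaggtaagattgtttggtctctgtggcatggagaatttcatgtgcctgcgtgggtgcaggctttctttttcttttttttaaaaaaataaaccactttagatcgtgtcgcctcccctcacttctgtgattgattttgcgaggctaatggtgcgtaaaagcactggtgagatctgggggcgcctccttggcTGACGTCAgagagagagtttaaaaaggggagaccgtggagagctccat

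Vip encodes vasoactive intestinal peptide, a relaxant of smooth muscle found in parasympathetic nerves. Its spots were close to background, and on the female array in RNA A and on the male array in RNA B only a share of 0.5 of its spots was well above background. Its signal was 8.73 in RNA A against 8.66 in RNA B on the female array, and 16.0 in RNA A against 8.26 in RNA B on the male array. The spread over spots was wide, with a log2 ratio of 0.011 on the female array (SD over spots 0.75) and 0.95 on the male array (SD over spots 0.46). RNA A was 1.94-fold brighter on the male array, and the spots there ranged from 13.4 to 18.9 in RNA A and from 6.44 to 10.6 in RNA B, without overlap. The ratio on the male array was 0.32 with normexp and 0.60 in the deposited table, so that its size rests on the treatment of dim spots.

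Gal, Tac1 and Pthlh differed little between the RNAs. Gal encodes galanin, a peptide of sensory and autonomic neurons. Its signal was 223 in RNA A against 203 in RNA B on the female array, and 184 in RNA A against 201 in RNA B on the male array, where 3 spots were kept. The ratios, 0.14 in the female and -0.13 in the male pools, had opposite signs, although the spots of both RNAs did not overlap within either array.

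Tac1 encodes the precursor of substance P and neurokinin A. Its signal was 60.7 in RNA A against 51.5 in RNA B on the female array, where 3 spots were kept, and 71.8 in RNA A against 71.5 in RNA B on the male array. This gave log2 ratios of 0.24 in the female and 0.0052 in the male pools. RNA A was slightly brighter without overlap of spots in the female pools, and the spots overlapped in the male pools.

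Pthlh gave 276 in RNA A against 334 in RNA B on the female array, where 2 spots were kept, and 325 in RNA A against 298 in RNA B on the male array. The spots overlapped on both arrays and ranged from 210 to 374 overall. Its log2 ratio thus turned from -0.28 in the female to 0.12 in the male pools.

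**Figure D2:**
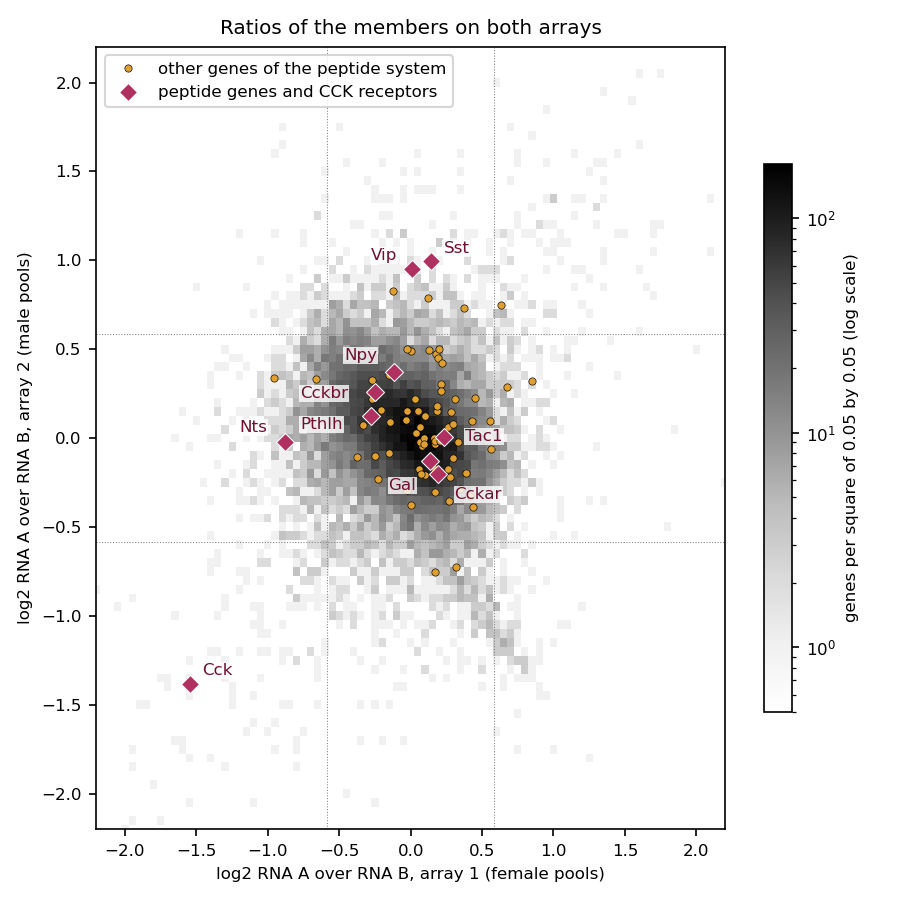
Log2 ratio of RNA A over RNA B on array 1 (x axis) against array 2 (y axis) for the 10 genes (diamonds), 71 other genes of the peptide system (circles) and, in grey, the 21371 genes well above background counted in squares of 0.05 (log scale), with 23 genes beyond 2.2 not drawn and dotted lines at 1.5-fold. Cck lies far out in the lower left, Nts at the left, Sst and Vip at the top, and the other 6 genes among the bulk of the genes.

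The wider peptide system was then examined with 98 further genes, of which 71 were well above background. They comprised enzymes and chaperones of precursor processing, receptors of the other peptides, other precursors and peptidases that break peptides down. By the rule of 1.5-fold on both arrays and a signal of 100, 0 of them passed towards RNA A and 0 towards RNA B. limma with Benjamini-Hochberg adjustment over 21371 genes called 0 of the 71 genes in either direction, against 0.126% of all genes brighter in RNA A (27 genes) and 0.187% brighter in RNA B (40 genes). At an unadjusted p under 0.05, limma gave 4 of the 71 genes towards RNA A (Edn2, Calcb, Stc2 and Npy5r) and 0 towards RNA B, and 358 and 449 over all genes. The counts over all genes at the adjusted threshold depended on the normalization and came to 1 and 0 with normexp and loess.

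The 71 genes had a median log2 ratio of 0.17 in the female and 0.077 in the male pools, and that of all genes was -0.00066 and 0.025. Of the 71 genes, 28 favoured RNA A on both arrays (39.4%), 5 favoured RNA B on both (7.04%) and 38 had opposite signs. Over all genes, 21.6% favoured RNA A and 17.4% favoured RNA B on both arrays.

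Of the processing genes, 0 passed either rule. They encode the convertases that cut precursors, carboxypeptidase E, the amidating enzyme PAM, the tyrosylprotein sulfotransferases that sulfate cholecystokinin, and chaperones of the convertases. Of 11 such genes, 10 were well above background, with a median log2 ratio of 0.043 on the female array and 0.091 on the male array. The largest mean ratios with the same sign on both arrays were those of Pcsk5, a convertase (0.10), Qpct, which forms N-terminal pyroglutamate (0.082), and Pcsk2, the neuroendocrine convertase (0.031). Chosen after its values were seen, Furin, a convertase of most cells, had ratios of -0.95 on the female array and 0.34 on the male array. Scg5, the chaperone of Pcsk2 and likewise chosen so, had ratios of -0.13 on the female array and 0.83 on the male array.

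Receptors of the other peptides were represented by 23 genes, of which 17 were well above background. The female pools gave them a median log2 ratio of 0.13 and the male pools one of 0.14. Npy5r, a receptor of neuropeptide Y, had the largest mean (0.48 ± 0.27, SD, n = 2 arrays), followed by the galanin receptor Galr2 (0.33) and the somatostatin receptor Sstr1 (0.31). The signals of Npy5r were 20.5 in RNA A against 12.8 in RNA B on the female array, and 13.3 in RNA A against 10.8 in RNA B on the male array. Another somatostatin receptor, Sstr5, was picked with its values known and had ratios of 0.32 on the female array and -0.73 on the male array.

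Among 55 other precursor genes, 35 were well above background, with a median of 0.20 on the female array and 0.094 on the male array. Both arrays favoured RNA A for 19 of these and RNA B for 3. Edn2, which encodes the vasoconstrictor endothelin 2, had the largest mean ratio (0.69 ± 0.081, SD, n = 2 arrays; limma, adjusted p = 0.55). Its signals were 10.9 in RNA A against 7.03 in RNA B on the female array, and 7.92 in RNA A against 4.72 in RNA B on the male array, close to background.

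Calcb, which encodes a CGRP peptide of sensory neurons, gave 119 in RNA A against 66.0 in RNA B on the female array, and 98.9 in RNA A against 79.1 in RNA B on the male array. Its mean ratio was 0.59 ± 0.37 (SD, n = 2 arrays). Stc2, encoding the secreted glycoprotein stanniocalcin 2, had a mean ratio of 0.55 ± 0.25 (SD, n = 2 arrays). Gast, the gene of gastrin, the nearest relative of cholecystokinin and the second ligand of Cckbr, was looked up after the values were seen and had ratios of 0.41 on the female array and -0.32 on the male array.

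All 9 peptidase genes were well above background, with a median of -0.15 on the female array and -0.10 on the male array. Mme, which encodes neprilysin, a membrane enzyme that degrades cholecystokinin and substance P, reached 18464 in RNA A against 21675 in RNA B on the female array, and 18304 against 21496 on the male array. Its mean ratio was -0.23 ± 0.00039 (SD, n = 2 arrays), so that both arrays gave nearly the same small difference. Ece1, the endothelin-converting enzyme, had a mean of -0.24 ± 0.19 (SD, n = 2 arrays).

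**Figure D3:**
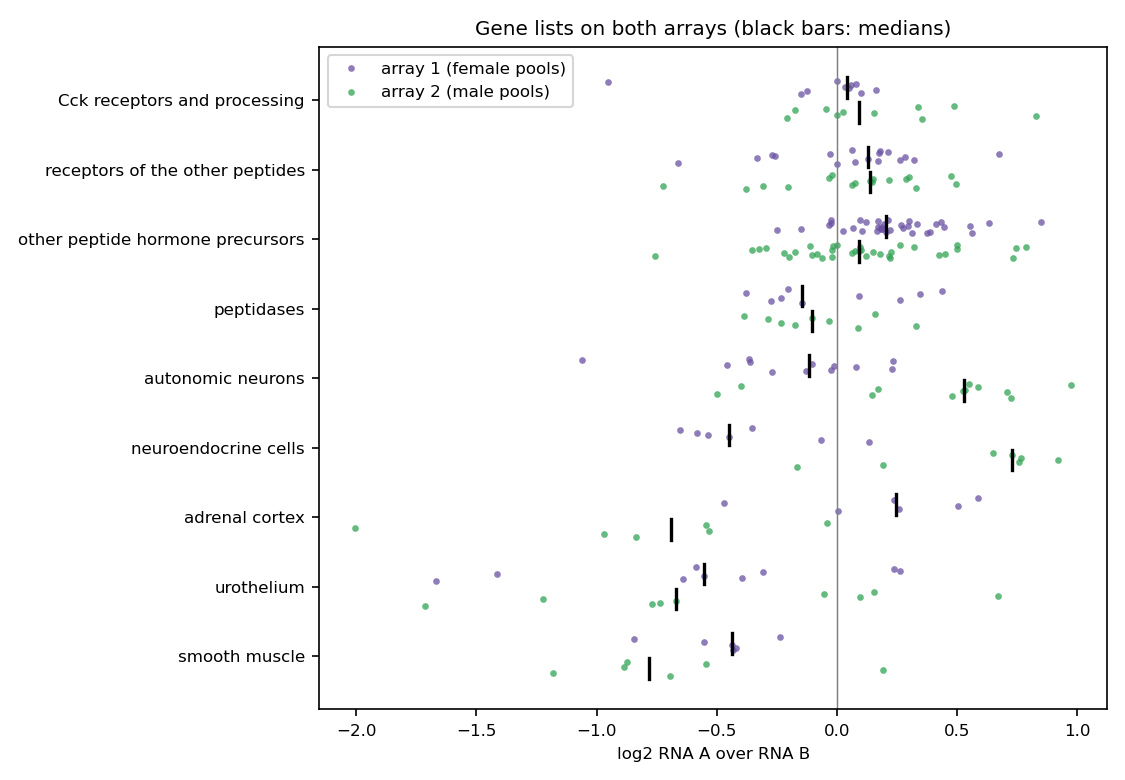
Log2 ratio of RNA A over RNA B for each gene well above background in 4 lists of the peptide system (top, without the 10 genes) and 5 lists of cell type markers (bottom), on array 1 (purple) and array 2 (green), with black bars for the medians. The medians of the peptide lists lie between -0.15 and 0.20, and those of the neuroendocrine and adrenal cortex lists change side between the arrays. The medians of urothelium and smooth muscle lie on the side of RNA B on both, with Krt5 on the other side on both arrays and Des on array 2.

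The 5 genes with ratios nearest to those of Cck were taken from 14982 genes bright enough for the signal threshold of 100, by Euclidean distance over the ratios of the 2 arrays. Dock8, an activator of small GTPases known from immune cells, was the nearest at a distance of 0.037, with ratios of -1.57 on the female array and -1.41 on the male array. The study detected Dock8 throughout the urothelium by in situ hybridization and found it strongly reduced in Pparg-cKO ureters. Dock8 was followed by 4933402E13Rik (0.086), 3830417A13Rik (0.18), the uroplakin gene Upk1a (0.21) and the probe A_55_P2243558, which carries no gene name in the files (0.21). Upk1a encodes a protein of the apical plaques of superficial urothelial cells. Its signals were 4545 in RNA A against 12126 in RNA B on the female array, and 4915 in RNA A against 11472 in RNA B on the male array. This likeness rests on a pair of arrays and is a description of the ratios.

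The medians of the urothelial and smooth muscle lists lay on the same side as Cck on both arrays, but not all of their genes did. The urothelial list (9 of 9 genes well above background) had a median ratio of -0.55 on the female array and -0.67 on the male array. RNA B was brighter on both arrays for the 5 uroplakin genes, whereas Krt5, a keratin of basal cells, had ratios of 0.26 and 0.67, and Trp63, Cdh1 and Epcam changed sign between the arrays. The summed signal of the list was 60401 and 60270 in RNA A and 93531 and 96300 in RNA B. Its largest ratios were those of the uroplakin genes Upk3b and Upk1a, with means of -1.69 and -1.32, both called by limma (adjusted p = 0.020 and 0.044), and 3 of its genes passed 1.5-fold on both arrays. Both calls were lost in 5 settings that called 0 genes towards RNA B, namely normexp with loess, centring, the deposited table, no filter on dim probes and a filter accepting either RNA on each array. The smooth muscle list (6 of 6) had a median of -0.44 on the female array and -0.78 on the male array, with summed signals of 77351 and 73649 in RNA A and of 98500 and 128870 in RNA B. Its largest mean ratios were those of Myh11 (-0.80) and Cnn1 (-0.72), and limma called 0 of its genes. Des changed sign between the arrays (-0.44 and 0.19). The part of either tissue in the result for Cck was not tested.

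The medians of the neural and neuroendocrine lists changed side between the arrays. The part of neural or neuroendocrine cells in the result for Cck was not tested either. Of 8 neuroendocrine genes, 7 were well above background, all but Neurod1, with a median ratio of -0.45 on the female array and 0.73 on the male array. Their summed signal was 1278 in RNA A against 1563 in RNA B on the female array, and 1994 in RNA A against 1440 in RNA B on the male array. Insm1, a transcription factor of endocrine differentiation, had ratios of -0.54 and 0.92, and Chgb, a granin of dense-core granules, had ratios of -0.58 and 0.77. The higher RNA was thus the green one on either array for 6 of the 7 genes, and the red one for the remaining gene.

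The 12 autonomic neuron genes, all well above background, had a median of -0.12 on the female array and 0.53 on the male array, with summed signals of 10229 and 9907 in RNA A and of 9462 and 11464 in RNA B. Elavl3 (-1.06 and 0.98) and Tubb3 (-0.27 and 0.73), both genes of neuronal differentiation, had the largest ratios. The green RNA was the higher one on both arrays for 9 of the 12 genes. It was the lower one on both for Snap25 (0.23 and -0.50) and Elavl4 (0.23 and -0.40). RNA A was higher on both for Prph (0.079 and 0.71). The summed signals went against the medians on both arrays. Snap25 alone had signals of 6660 and 5577 in RNA A and of 5678 and 7876 in RNA B.

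The median of the adrenal cortex genes (6 of 6 well above background) went the opposite way, from 0.25 on the female array to -0.69 on the male array. The red RNA was the higher one on both arrays for 5 of these genes, whereas RNA B was higher on both for Hsd3b1. Their summed signal was 298 in RNA A against 258 in RNA B on the female array, and 208 in RNA A against 375 in RNA B on the male array. Hsd3b1 (-0.47 and -2.0045), an enzyme gene of steroid synthesis, and Nr5a1 (0.26 and -0.97), which encodes a regulator of steroid enzyme genes, had the largest ratios.

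The single-array differences of Nts, Sst and Vip lay on the side of the neuroendocrine median. This was RNA B for Nts on the female array and RNA A for Sst and Vip on the male array. In each case the brighter RNA was the green one, but these genes were picked for their ratios on a single array. Among the other genes without Cck, the green RNA was brighter on both arrays for Npy (-0.12 and 0.37), Pthlh (-0.28 and 0.12) and Cckbr (brighter probe, -0.25 and 0.26). The red RNA was brighter on both for Gal (0.14 and -0.13) and Cckar (0.19 and -0.20), and on the female array for Tac1 (0.24). Of these, only Gal had no overlap of spots on either array. The part of neural cells, of sex or of dye in any of these differences was not tested.

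**Figure D4:**
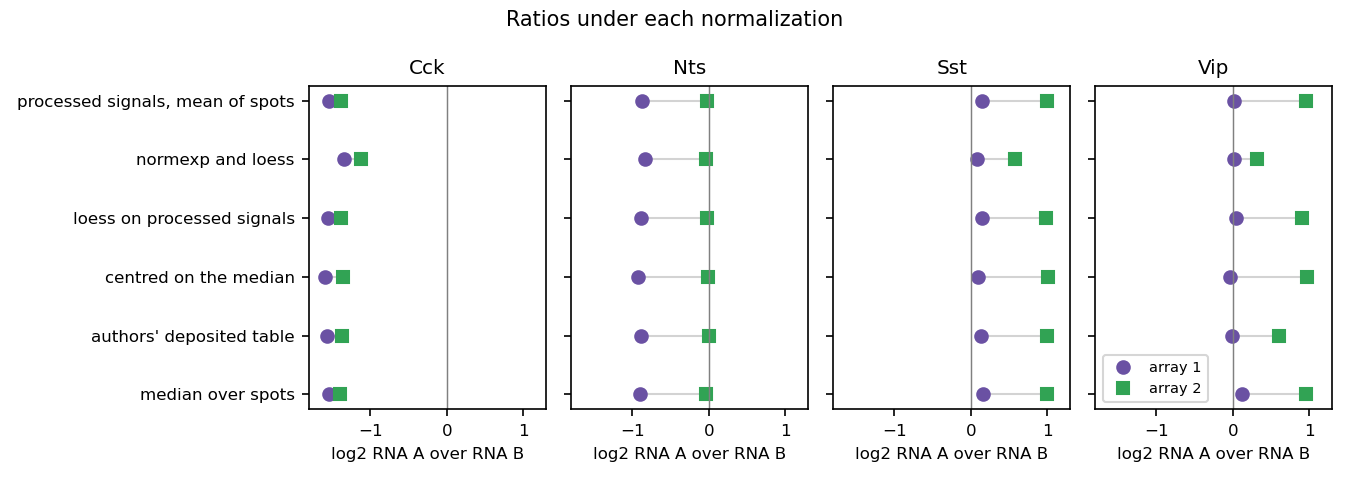
Log2 ratio of RNA A over RNA B of Cck, Nts, Sst and Vip on array 1 (circles) and array 2 (squares) under 6 ways of computing it (rows). Cck lies between -1.59 and -1.13 on both arrays in every row, whereas the ratio of Vip on array 2 is 0.95 from the processed signals and 0.32 with normexp.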

How the data were processed

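RNA from 2 dual-colour arrays (1 Pparg-cKO and 1 control pool on each) was analysed. Per the file headers, the processed intensities were computed by Agilent Feature Extraction 10.7.3.1, which subtracted the background and balanced the dyes by a linear and a LOWESS step. These steps shape the ratios of dim probes most. The log10 ratios (red over green) deposited beside them restate these signals and were not used for the results. The authors' deposited table holds signed fold changes, a score with no value between -1 and 1. The sample titles name the comparison as Pparg-cKO vs control, and the direction of the fold changes is not stated otherwise. The deposited table correlated with RNA A over RNA B across probes (r = 0.9972 on array 1, 18716 probes, and 0.9971 on array 2, 18969 probes) and served as an alternative. Scale and centring of the table are not stated, and its median was 1 on both arrays.

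Both arrays were on 1 slide and in 1 scan. Of 157716 spots for 39429 probes per array, 5705 (array 1) and 5579 (array 2) flagged as outliers were left out, and 0 were saturated. Green spots were well above background for 80.3% and 80.4%, red spots for 70.4% and 70.4%. Each probe was given the mean of its spots' log2 signals, and the brightest probe represented a gene. Values were normalized within each array, so levels are not compared across arrays. The number of arrays limits the precision, and the spread between them covers sex and dye as well as pools. A probe counted as well above background if a share of at least 0.5 of its spots did. limma 3.58.1 (R 4.3.3, lmFit with an intercept, eBayes) was fitted to the 21371 genes for which the same RNA met this on both arrays, and no p-value is given for the 10 genes. The fold rule required 1.5-fold towards one RNA on both arrays and, there, a signal of 100 or more. The script was tested on simulated data.

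The 10 genes and all lists were chosen with earlier results of these data known. Named are all 10 genes, of each peptide list the genes called by either rule and the 3 with the largest mean ratio of constant sign, the 5 genes nearest to Cck, and the 2 genes per marker list with the largest ratio on either array. The glial marker list is not reported here. Gene names and probe positions (mm9) are those of the files, and upstream windows are from RefSeq (GRCm38.p6). Alternatives were normexp (offset 50) with loess, loess on processed signals, centring, the deposited table, medians of spots, other thresholds on signal (50 and 200) and fold (2), every probe, keeping dim probes, an intensity trend and leaving out each array. A filter that accepts either RNA on each array was chosen after seeing the data.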

Additional observations from a re-analysis of the deposited data

Results flagged for a closer look

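The log2 ratio of RNA A over RNA B had opposite signs on the 2 arrays for 5 of the 10 genes. Array 1 minus array 2 was 0.39 for Cckar, -0.51 for the brighter probe of Cckbr, 0.26 for Gal, -0.49 for Npy and -0.40 for Pthlh. The median ratio also changed sign for 3 marker lists, with a difference of -0.64 for autonomic neurons, -1.18 for neuroendocrine cells and 0.94 for adrenal cortex. These differences between female and male pools were not tested, and sex and dye changed together. Opposite signs were frequent, with 13038 of 21371 genes well above background.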

How the results depend on the processing

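Cck kept its direction under every alternative, with a mean log2 ratio of -1.24 with normexp and loess and of -1.55 to -1.38 with either array left out. It was lost from the fold rule at a signal of at least 200 (0 of the 10 genes), and with 1 array the rule counted 1 to 2 of the 10 genes in RNA B, Nts joining on array 1. Of the 98 other peptide genes, the rule counted 2 in RNA A without a threshold on signal (Edn2, and Pcsk1, which was not well above background) and, with 1 array left out, 1 to 2 towards RNA A and 1 to 1 towards RNA B. Over all genes limma called 27 towards RNA A and 40 towards RNA B, but 0 and 0 without the filter on dim probes, 1 and 0 with normexp and loess, 9 and 24 with loess on the processed signals, 1 and 0 after centring, 0 and 0 with the deposited table, and 1 and 0 with the filter that accepts either RNA on each array. It called 0 peptide genes in each of these settings. The cause of these shifts was not tested. limma could not be run with 1 array. The means of the other 10 probes moved by less than the spread between arrays in each of 5 settings that kept both arrays, with the sign kept in all 5 for Npy, Nts, Pthlh, Sst, Tac1 and Vip and in 2 to 4 for the probes of Cckar, Cckbr and Gal. No paired analysis was possible because there is 1 group of 2 arrays, each already a ratio of both RNAs.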
